A study of Mus musculus with 2 samples.

Results

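The Hox genes are the protein-coding genes of the HoxA, HoxB, HoxC and HoxD clusters. They were chosen by symbol (Hoxa, Hoxb, Hoxc or Hoxd and a number) and found on the array through the RefSeq transcript that each probe carries. All 39 were present, of 20884 genes that could be named: 11 in HoxA on chromosome 6, 10 in HoxB on chromosome 11, 9 in HoxC on chromosome 15 and 9 in HoxD on chromosome 2. The study hybridised 1 single-colour Agilent array per cell population. Differentiated small proliferative adipocytes (SPAD) were set beside differentiated stromal vascular cells (SVCD; the labels spell it viscular). Both came from collagenase-digested epididymal fat of male C57/BL mice. The small proliferative adipocytes were the cells that sedimented when the floating fraction was spun at 226 ×g for 3 min, and the stromal vascular cells were the lower phase left by a first spin at 9 ×g for 1 sec. Both populations were cultured to 90% confluency, kept for 3 days with insulin, dexamethasone and IBMX, and then for 2 days in plain DMEM, so both groups received the same adipogenic treatment. The sample titles call both populations differentiated, whereas the description field of the labels leaves that word out. The titles were followed. The labels do not say how many mice or cultures each RNA came from. With 1 array per group no difference has a replicate check and no p-value is given.

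Hox genes encode homeodomain transcription factors that give cells their position along the head-to-tail and limb axes. Within a cluster the gene number follows the order on the chromosome. Low-numbered genes are used early and toward the head, and high-numbered genes late and toward the tail and the limb tips. Genes of the same number in different clusters are paralogues. Cells of adult connective tissue and fat keep a Hox pattern that reflects the site they came from, so that fat depots and progenitor populations can differ in it.

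Hox genes tended to be brighter in SPAD than in SVCD, with the clearest difference among the brightest members. The HoxD cluster held the largest differences in both directions, but these genes (Hoxd13, Hoxd3 and Hoxd11) were dim on 1 array. With a background correction that draws dim differences toward 0 (normexp), Hoxa11 had the largest difference toward SPAD (1.17), against 0.77 for Hoxd13. Hoxa11, Hoxa7, Hoxb6 and Hoxc6 were each between 2.02-fold and 2.50-fold higher in SPAD. In HoxD, Hoxd9 was 3.08-fold higher, whereas its neighbour Hoxd10 was 2.38-fold lower. Over the 35 Hox genes with a value, the median log2 difference (SPAD minus SVCD) was 0.46, against 0.07 over the 15626 named genes with a value. This median turned to -0.38 when the arrays were scaled to their spike-in controls, which moved the median of all named genes to -0.77. The scalings differ by a constant, so the Hox median stood 0.39 above that of all genes under both. Under the other alternatives this gap ran from 0.21 (no filter on dim probes) to 0.45 (quantile normalization), with 0.25 under normexp. In the text below, differences are log2 differences of signal after dividing each array by the 75th percentile of its probes (an intensity of 622 for SPAD and 678 for SVCD). Spike-in scaling takes 0.84 from every one of them, so a gene given below as higher by less than that falls below 0 under it. A gene counts as higher or lower from 2-fold, a log2 difference of 1 in size. The ± value (spot SD) is the SD of the difference over repeat spots of a probe at that level of signal. It is divided by the square root of the number of spots of the gene's probe. It covers spot error only, and understates the error of a gene that is dim on 1 array.

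A signal was called well above background on both arrays for 30 Hox genes (76.9%), against 67.4% of all named genes. Another 2 (Hoxa13 and Hoxd3) met this on the SPAD array alone and 3 (Hoxa2, Hoxc8 and Hoxd11) on the SVCD array alone. These shares over all named genes were 3.27% and 4.15%. For such a gene the difference is a bound, taken against the lowest signal well above background on the dim array (10.8 for SPAD and 8.60 for SVCD) or against the gene's own dim signal where that was higher. Hoxb1, Hoxb13, Hoxd1 and Hoxd12 were below background on both arrays (all named genes: 25.2%). These are the hindbrain gene Hoxb1, the prostate gene Hoxb13, Hoxd1 and the limb gene Hoxd12. Hoxb1 was printed on 10 spots per array and none of the 20 spots was well above background.

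**Figure D1:**
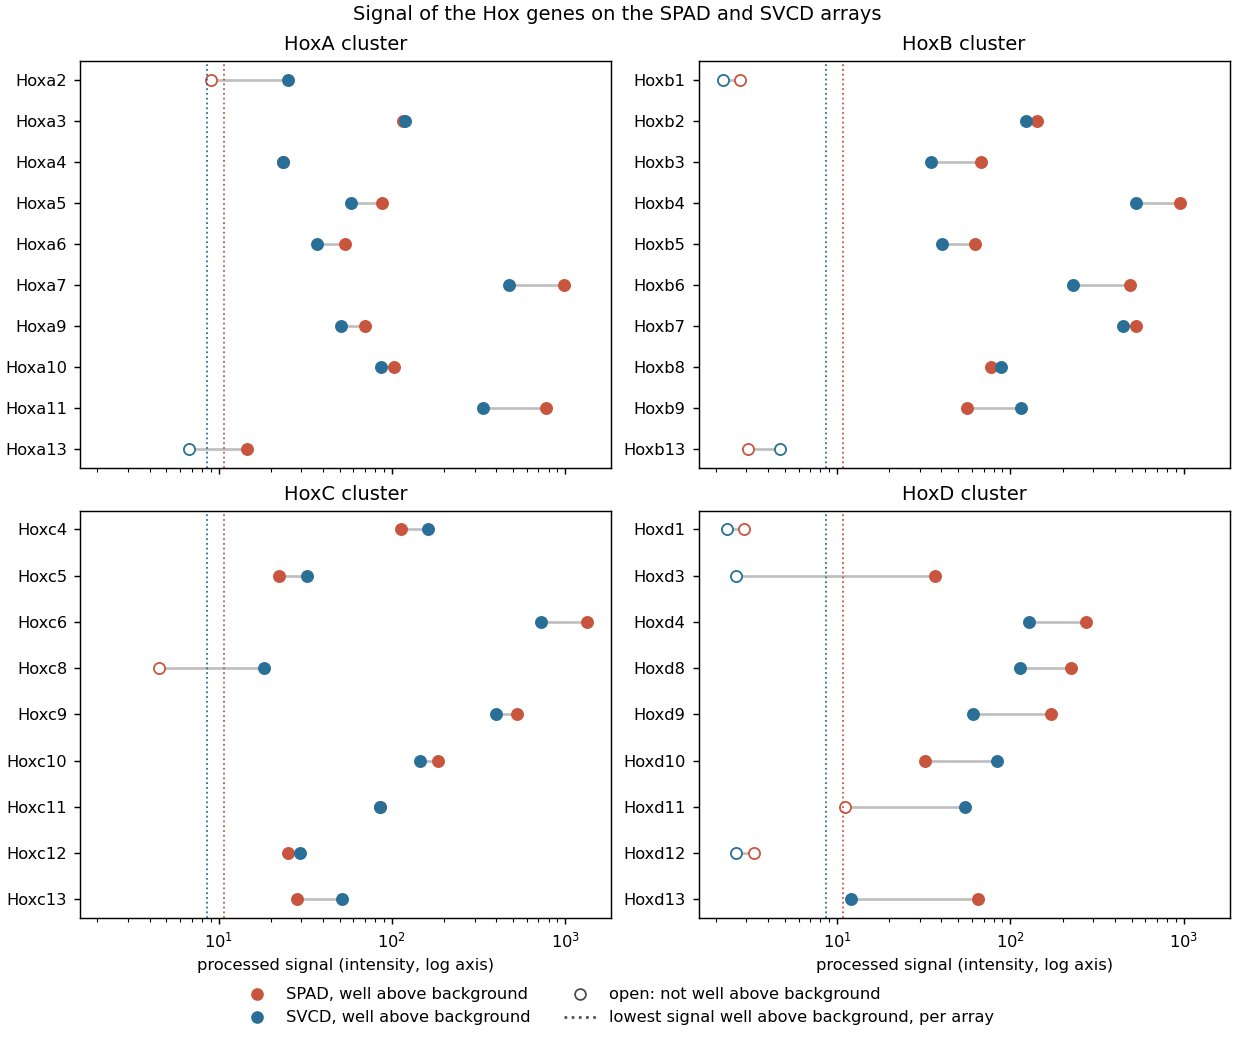
Processed signal (intensity, log axis) of single Hox genes on the SPAD and the SVCD array, 1 panel per cluster, from the brightest probe of each gene. Filled points are well above background, open points are not, and dotted lines mark the lowest signal well above background on each array; signals are to be compared within a gene, since probes differ in brightness. Hoxd3 is filled in SPAD alone and Hoxd11 in SVCD alone.

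Of the 35 Hox genes with a value, 10 (28.6%) were at least 2-fold higher in SPAD, against 16.3% of all named genes with a value, and 3 (8.57%) were at least 2-fold lower, against 14.1%. Together 13 Hox genes (37.1%) passed this size, against 30.4% of all genes. Among all named genes past 2-fold, 53.6% were higher in SPAD, or 14.4% with spike-in scaling. The Hox counts moved in the same way under spike-in scaling, to 2 higher and 9 lower, when 6.44% and 38.3% of all genes were called. Counted from the median of all genes instead of from 0, 9 Hox genes were higher and 3 lower. The shares of all genes were 14.8% and 15.3%, and both scalings must give the same counts, since they differ by a constant. With no filter on dim probes, all 39 genes gave 4 higher and 5 lower on this count, against 12.1% and 16.3%. That is no excess of higher Hox genes. Of the 30 genes well above background on both arrays, 24 lay more than 2 spot SDs from the median of all genes. The other 6 (Hoxa3, Hoxa4, Hoxb8, Hoxc5, Hoxc11 and Hoxc12) did not differ from it beyond spot error. This count was not made over all named genes, whose differences had an SD of 1.30, so it does not set Hox genes apart.

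**Figure D2:**
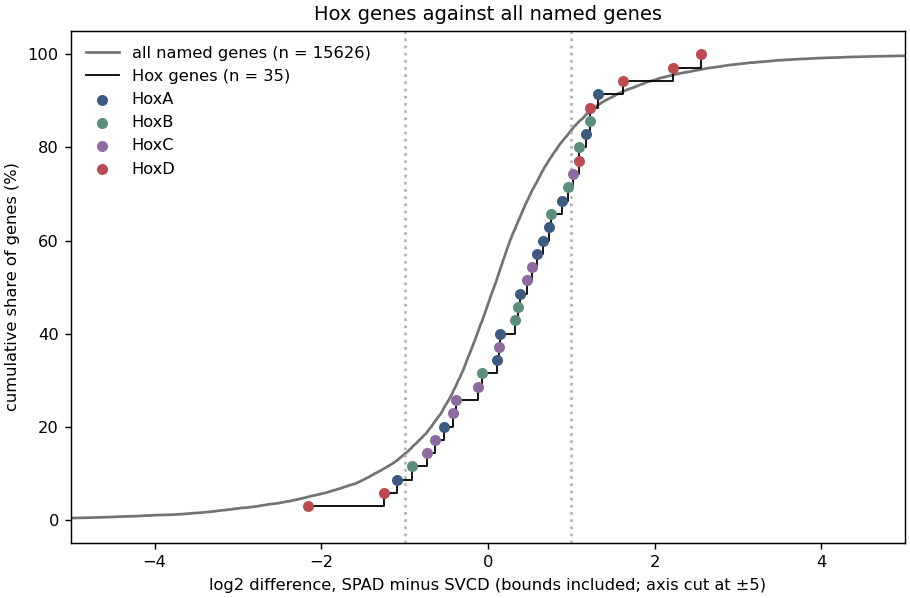
Cumulative share of genes (percent) by log2 difference, SPAD minus SVCD, for the 35 Hox genes with a value (black steps, points coloured by cluster) and for the 15626 named genes (grey line), bounds included, with dotted lines at 2-fold. The Hox steps lie to the right of the grey line over most of the range, with medians of 0.46 and 0.07.

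The excess over other genes lay among Hox genes of higher signal. The 7 brightest Hox genes, with a mean signal of the 2 arrays above 276, were Hoxa7, Hoxa11, Hoxb4, Hoxb6, Hoxb7, Hoxc6 and Hoxc9, and each was brighter in SPAD than the median gene of the same level. The 4 of them with mean signals of 276 to 666 had a median of 0.87, against 0.04 for the 2091 named genes at that level, and the 3 between 666 and 1404 had a median of 1.02, against 0.05 for 1884 genes. Of the 10 Hox genes between 83.6 and 276, 8 stood above the median of their level. The 18 dimmest, in contrast, had a median of 0.03, against 0.16 for all 4548 genes of that level, with 3 higher and 3 lower, when 23.1% and 15.5% of all genes at that level were. Signals at the floor were themselves unequal: genes below background on both arrays had a median measured difference of 0.45, over 5258 named genes and over the 4 Hox genes alike. The spot SD was 0.26 at the dimmest level and 0.04 at the level of Hoxa7, Hoxb4 and Hoxc6.

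HoxA differed along its length. Hoxa2 lay at -1.10 (a bound) and Hoxa3 at 0.10, whereas all 8 members from Hoxa4 to Hoxa13 were above 0. With spike-in scaling 3 of these 8 (Hoxa7, Hoxa11 and Hoxa13) were. Without it, 8382 of 15626 named genes with a value were above 0. Across the 11 genes of the cluster, which share the same 2 arrays and differ in brightness, Spearman's rho between gene number and difference was 0.79. It is a description of these 2 arrays. In the other clusters rho was -0.50 (HoxB, 8 genes), -0.12 (HoxC, 9 genes) and -0.14 (HoxD, 7 genes), so the HoxA order was not shared by them.

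Hoxa2, the selector gene of the second pharyngeal arch, was not well above background in SPAD (9.04) and had 25.2 in SVCD. By the bound it was at least 2.14-fold lower in SPAD, close to the threshold and with spot error left out. Under normexp its difference was -0.26. Hoxa3, needed for the thymus and parathyroid glands, was even at 116 and 118 (0.10 ± 0.12). Hoxa4 was dim and even as well (23.6 and 23.4). Hoxa5, a regulator of lung and of fat cell differentiation, had 88.1 in SPAD and 57.7 in SVCD (0.74 ± 0.26), and Hoxa6 had 53.3 and 36.9 (0.66 ± 0.26). Neither reached 2-fold.

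Hoxa7 and Hoxa11 were the members past 2-fold in this direction. Hoxa7 had a signal of 987 in SPAD and 475 in SVCD and was 2.27-fold higher in SPAD (1.18 ± 0.04). Hoxa11, which patterns the forearm and the uterus, was printed on 10 spots per array, which gives it the smallest spot error. Its spots ran from 726 to 815 (median 769) in SPAD and from 308 to 387 (median 332) in SVCD. They are repeat prints of 1 probe and cover spot error only. The gene was 2.50-fold higher in SPAD (1.32 ± 0.02). Its 10 spot pairs gave differences of 1.18 to 1.43, with an SD of 0.09. The noncoding Hoxa11os, transcribed from the opposite strand at Hoxa11, moved alike, with 1778 in SPAD and 638 in SVCD (3.04-fold higher). Between Hoxa7 and Hoxa11, Hoxa9, a regulator of blood progenitors, gave 0.59 and 0.56 on its 2 probes, and Hoxa10, known from uterus and blood, had 103 and 86.6 (0.38 ± 0.12). Hoxa13, a limb-tip and genital gene, was near the floor at 14.6 in SPAD and below background at 6.78 in SVCD, and its other probe was below background on both arrays.

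In HoxB 2 of 8 genes with a value were higher (25%) and none lower. Over all named genes with a value these shares were 16.3% and 14.1%, so 2 genes are not far from the general share. Differences were above 0 from Hoxb2 to Hoxb7, while Hoxb9, the only posterior gene with a value, lay below 0. Hoxb2, a hindbrain gene, had signals of 142 and 123 (0.33 ± 0.12). Hoxb3 had 67.9 in SPAD and 34.6 in SVCD on its brighter probe, 2.14-fold higher, but 30.5 and 31.9 on the other, a difference of 0.06, so its probes disagree. Hoxb4, which expands blood stem cells, had 949 and 532 and lay just under 2-fold (0.96 ± 0.04). Hoxb5 had 62.3 and 40.4 (0.75 ± 0.26). Hoxb6 was 2.34-fold higher in SPAD, with 489 against 228 (1.22 ± 0.06). From there the signed difference fell with each step along the cluster. Hoxb7 had 528 and 448 (0.36 ± 0.06), and Hoxb8 had 77.2 and 88.6, which differ by less than spot error. Hoxb9, a gene of the thoracic segments, was 1.88-fold lower in SPAD, with 56.5 against 116 (-0.91 ± 0.26).

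HoxC genes showed the smallest differences of the 4 clusters, with a median of -0.12. Of 9 genes 1 was at least 2-fold higher (11.1%, against 16.3% of all named genes) and none lower (14.1% of all). Hoxc6, known from thoracic skeleton and mammary gland, was the exception, with 1333 in SPAD and 719 in SVCD (2.02-fold higher, 1.02 ± 0.04). This value is at the threshold: it fell to 0.94 with the arrays scaled to their median probe. Its neighbours Hoxc4 (113 and 161) and Hoxc5 (22.2 and 32.3) were not higher. Hoxc8, a thoracic gene known as a repressor of the brown fat programme, was below background in SPAD (4.53) and close to the floor in SVCD (18.3), at least 1.56-fold lower. Hoxc9 and Hoxc10 are used as markers of white and of subcutaneous fat. Hoxc9 had 523 in SPAD and 397 in SVCD (0.52 ± 0.06), and Hoxc10 had 184 and 146 (0.46 ± 0.12), both under 2-fold. Hoxc11 (85.8 and 85.4) and Hoxc12 (25.0 and 29.7) were even, and Hoxc13, a hair and nail gene, had 28.3 and 51.3 (-0.73 ± 0.26).

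HoxD was the cluster in which every measured gene passed 2-fold: of 7 with a value, 5 were higher in SPAD (71.4%) and 2 lower (28.6%). Over all named genes with a value these shares were 16.3% and 14.1%. The HoxD differences had an SD of 1.78 over genes, against 0.72 in HoxA, 0.71 in HoxB and 0.59 in HoxC. The anterior and central members were higher in SPAD. Hoxd3, known for a role in angiogenic endothelial cells, had a signal of 36.7 in SPAD and was below background in SVCD at 2.60, which makes it at least 4.66-fold higher. The noncoding Hoxd3os1, from the opposite strand at Hoxd3, was also well above background in SPAD alone (21.2 and 7.98, at least 2.69-fold higher). Hoxd4 was 2.34-fold higher, with 274 against 128 (1.22 ± 0.12), and Hoxd8 2.13-fold, with 222 against 114 (1.09 ± 0.12). Hoxd9 was 3.08-fold higher, with 171 in SPAD and 60.5 in SVCD (1.62 ± 0.12).

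At the posterior end Hoxd10 and Hoxd11 were lower in SPAD, between Hoxd9 and Hoxd13, which were higher. Hoxd10, which specifies lumbar motor neurons, had 32.2 in SPAD and 83.4 in SVCD, 2.38-fold lower (-1.25 ± 0.26). Hoxd11, a forearm gene, was not well above background in SPAD but was in SVCD on both of its probes. The first had 11.2 and 54.4, at least 4.46-fold lower in SPAD, and the second had 5.37 and 96.0, with a bound of -3.03. Hoxd12 was below background on both arrays. Hoxd13, which shapes the digits, had 65.1 in SPAD and 12.1 in SVCD, 5.88-fold higher (2.56 ± 0.26), although its SVCD signal lies close to the floor of 8.60. The step from Hoxd9 to Hoxd10 was -2.87 and that from Hoxd11 to Hoxd13 was 4.71. Steps that involve a bound, such as that at Hoxd11 or the -1.65 from Hoxc6 to Hoxc8, could be larger and are not ranked.

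**Figure D3:**
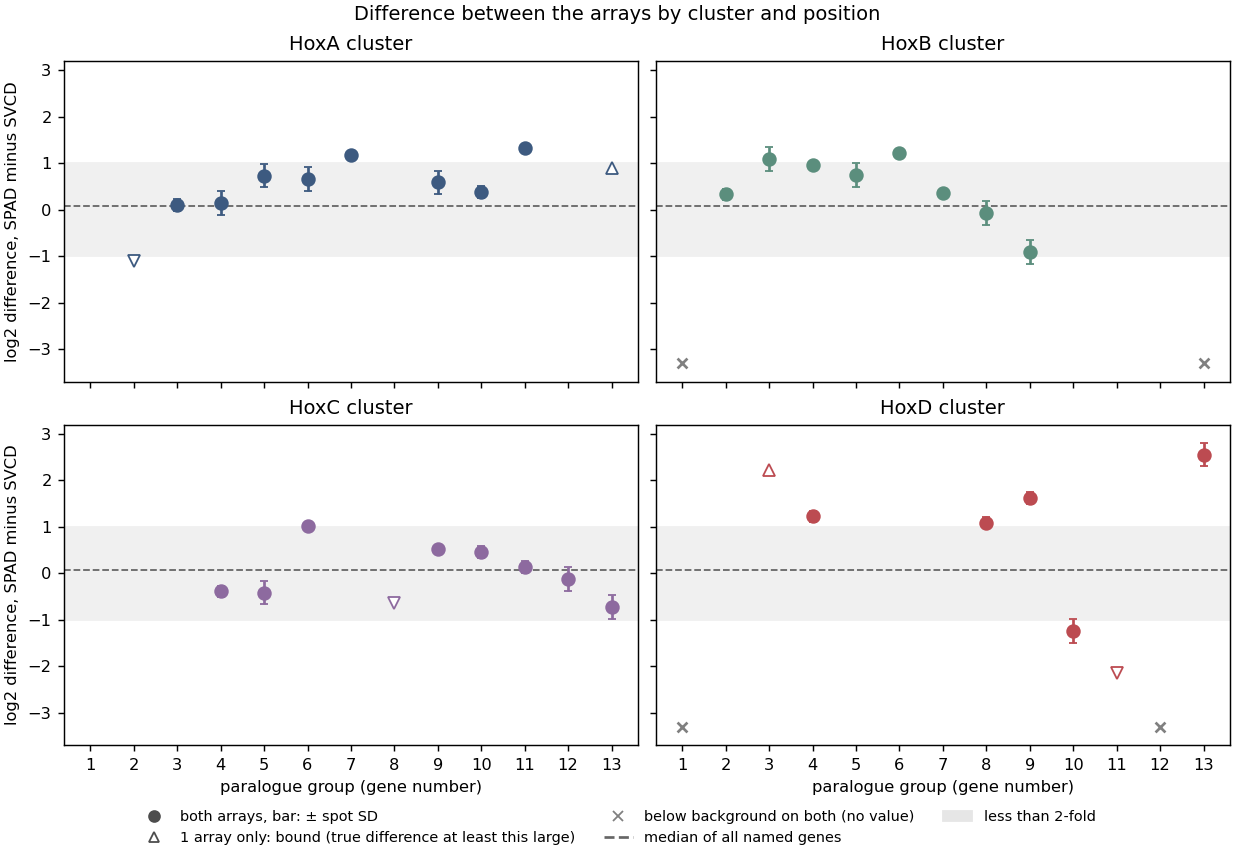
Log2 difference, SPAD minus SVCD, by gene number in each of the 4 clusters, for the genes described singly. Filled circles are genes well above background on both arrays, with bars of ± the spot SD; triangles are bounds for genes above background on 1 array; crosses at the foot mark genes without a value; the band covers less than 2-fold and the dashed line is the median of all named genes. HoxA values lie above 0 from Hoxa3 on, HoxB values become lower from Hoxb6 to Hoxb9, and HoxD goes from 1.62 at Hoxd9 to -1.25 at Hoxd10 and a bound of -2.16 at Hoxd11, and to 2.56 at Hoxd13.

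The promoters of the measured genes at the posterior end of HoxD are shown because they cover both lower genes (Hoxd10 and Hoxd11) and the higher genes next to them in the measured order (Hoxd9 and Hoxd13). They run from 250 bases before to 50 after a RefSeq start (build GRCm38.p6; the array files use another build). The table lists 2 starts for Hoxd11, of which the one nearer to Hoxd10 is printed. Capitals mark matches, on either strand, to the TATA box TATAAA, the CCAAT box, the composite Pbx-Hox motif TGATTNAT and the Meis motif TGACAG.
Hoxd13, chr2:74667975-74668274, + strand: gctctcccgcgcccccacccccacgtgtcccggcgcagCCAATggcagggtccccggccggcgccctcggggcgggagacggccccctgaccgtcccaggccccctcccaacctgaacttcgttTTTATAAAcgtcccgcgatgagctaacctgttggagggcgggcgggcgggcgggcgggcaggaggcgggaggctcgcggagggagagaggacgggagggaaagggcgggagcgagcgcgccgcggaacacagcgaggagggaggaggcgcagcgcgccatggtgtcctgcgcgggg
Hoxd11, chr2:74682073-74682372, + strand: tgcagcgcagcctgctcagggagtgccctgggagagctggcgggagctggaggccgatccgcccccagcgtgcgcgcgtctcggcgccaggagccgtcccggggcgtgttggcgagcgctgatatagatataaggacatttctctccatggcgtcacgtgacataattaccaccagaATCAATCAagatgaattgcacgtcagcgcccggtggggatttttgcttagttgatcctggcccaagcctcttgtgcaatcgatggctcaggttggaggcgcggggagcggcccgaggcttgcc
Hoxd10, chr2:74691641-74691940, + strand: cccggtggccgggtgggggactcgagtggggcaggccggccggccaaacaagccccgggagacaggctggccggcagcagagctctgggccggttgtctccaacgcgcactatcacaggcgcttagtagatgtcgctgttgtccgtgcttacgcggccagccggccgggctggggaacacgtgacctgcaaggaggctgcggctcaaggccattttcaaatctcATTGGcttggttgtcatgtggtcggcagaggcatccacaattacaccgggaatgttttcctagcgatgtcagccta
Hoxd9, chr2:74697513-74697812, + strand: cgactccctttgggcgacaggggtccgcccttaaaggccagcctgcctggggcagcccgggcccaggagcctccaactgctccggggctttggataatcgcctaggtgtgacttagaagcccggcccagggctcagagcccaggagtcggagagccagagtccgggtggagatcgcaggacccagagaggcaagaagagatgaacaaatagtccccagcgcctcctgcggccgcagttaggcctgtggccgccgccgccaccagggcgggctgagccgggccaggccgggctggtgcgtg

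The Hoxd13 window holds 37 CpG dinucleotides, a CCAAT box and TATAAA on both strands at 1 place, where the strands overlap. The printed Hoxd11 window holds 25 CpG and a Pbx-Hox motif, while that of its other start holds 4 CpG and none of the 4 motifs. The remaining windows are that of Hoxd10, with 22 CpG and a CCAAT box, and that of Hoxd9, with 20 CpG and none of the 4 motifs. Windows were found for 22 of the 39 Hox genes (24 starts), with a median of 14.5 CpG, against 7 over all 32851 windows of the table. Of the 24, 15 hold CCAAT (62.5%, against 37.4% of all windows), 4 hold TATAAA (16.7% against 13.6%), 2 hold TGATTNAT (8.33% against 3.22%) and 2 hold TGACAG (8.33% against 19.2%). The Pbx-Hox matches lie at Hoxd11 and at Hoxa2. A match describes the letters only.

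By position over all clusters, the central genes (numbers 4 to 8) had 14 of 15 members well above background on both arrays. Their median difference was 0.74, with 5 higher (33.3%) and none lower. The posterior genes (9 to 13) had a median of 0.42 over 14 with a value, with 3 higher (21.4%) and 2 lower (14.3%). The anterior genes (1 to 3) had a median of 0.22 over 6, with 2 higher (33.3%) and 1 lower (16.7%). Over all named genes these shares were 16.3% and 14.1%. Each of these position medians was negative with spike-in scaling, as was that of all named genes. The central genes include Hoxa7, Hoxb4, Hoxb6, Hoxb7 and Hoxc6, which are among the brightest Hox genes. Position apart from brightness was not tested. Paralogues did not move as a block. In paralogue group 6 all 3 members were positive (0.66 to 1.22), as they were in group 3 (0.10 to 2.22), where Hoxa3 was within spot error of 0. Of all named genes with a value, 8382 of 15626 were positive. Group 9, in contrast, ran from -0.91 at Hoxb9 to 1.62 at Hoxd9 and group 11 from -2.16 at Hoxd11 to 1.32 at Hoxa11. Probes of paralogues may cross-hybridise, which was not tested.

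Most of these calls were lost in the alternative with normexp background correction. It starts from the median spot signal, adds an offset of 50, which draws dim differences toward 0, and ends with quantile normalization. Under it 3 Hox genes remained at least 2-fold higher (Hoxa7 at 1.06, Hoxa11 at 1.17 and Hoxb6 at 1.04) and 1 lower (Hoxd11 at -1.25), when 8.85% and 9.71% of all genes were called. Hoxd9 then stood at 0.92, Hoxd13 at 0.77, Hoxd3 at 0.44, Hoxd10 at -0.58 and Hoxa2 at -0.26. None of the 13 genes past 2-fold changed sign under any of the 9 alternatives that gave it a value. For spike-in scaling this was fixed in advance, since it takes 0.84 from every difference and these differ by at least 1. The only higher genes past 2-fold under spike-in scaling were Hoxd3 and Hoxd13, and neither was past it under normexp.

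**Figure D4:**
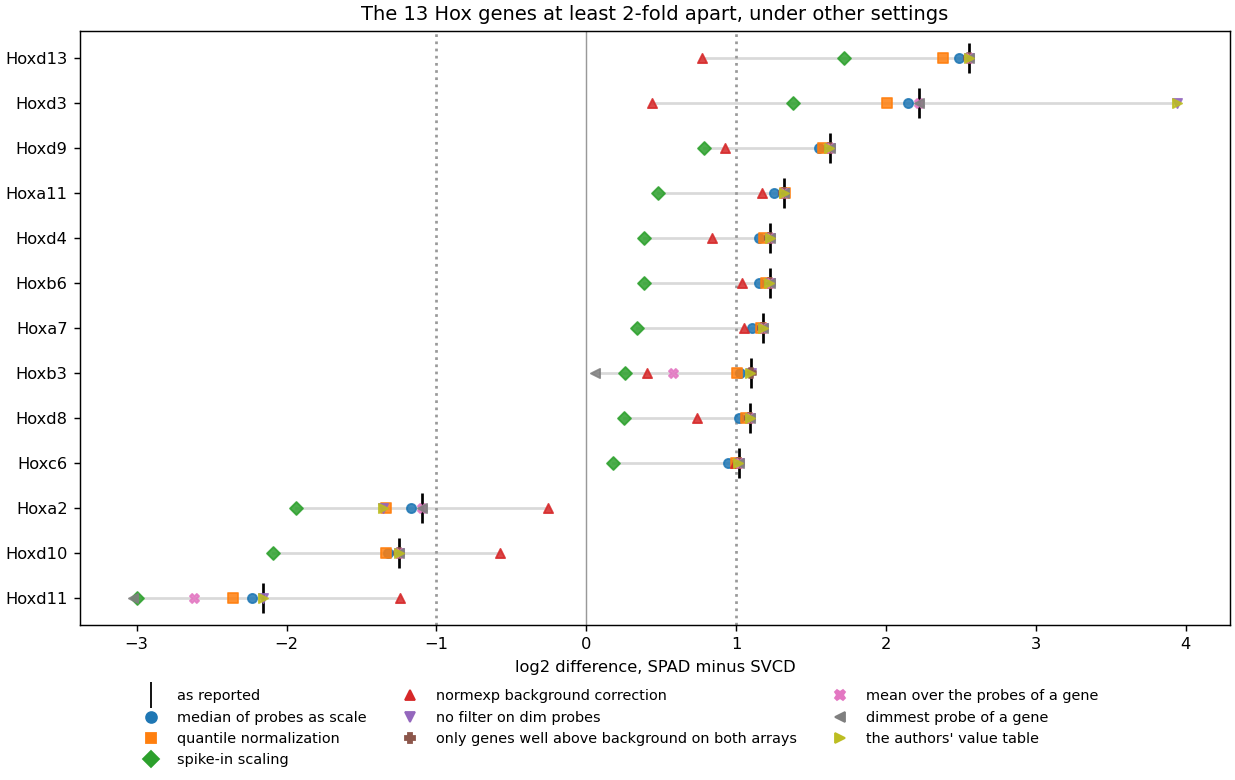
Log2 difference, SPAD minus SVCD, of the 13 Hox genes at least 2-fold apart, as reported (black bar) and under 9 other settings (symbols), with dotted lines at 2-fold. Every symbol stays on its side of 0, but spike-in scaling and normexp move most of the higher genes inside the 2-fold lines.

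Hox proteins bind DNA together with TALE homeodomain cofactors, the Pbx, Meis and Pknox proteins. Of 11 TALE genes 10 had a value, with a median difference of 0.01 and 1 (10%) at least 2-fold lower. For this and the lists below, the shares over all named genes with a value were 16.3% higher and 14.1% lower. Pknox2 was 3.88-fold lower in SPAD (104 and 441), Pknox1 lay at 1.00 on its brighter probe (561 and 307) and 1.36 on the other, Tgif1 at 0.89 and Pbx2 at -0.59. Meis1 (708 and 783) and Pbx3 (658 and 700) were even.

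Polycomb proteins keep Hox genes silent and trithorax or MLL proteins keep them active. Of the Polycomb list 30 of 31 genes had a value, 3 were higher (10%) and 2 lower (6.67%), with a median of 0.27. Neither share exceeded that of all named genes. Phf19 was 8.95-fold lower in SPAD (30.1 and 294) and Phc1 2.09-fold lower. Phf1 was 3.91-fold higher (1251 and 349) and Rybp 3.39-fold, and Ezh1 was the other higher gene. Ezh2, the methyltransferase of the complex, had 399 and 840 (-0.95 ± 0.06). Of the trithorax list 22 of 23 genes had a probe and a value, 3 were higher (13.6%) and 2 lower (9.09%), with a median of 0.10. These shares did not exceed those of all named genes either. Setd1a was 2.22-fold higher, Ash1l 2.15-fold higher and Dot1l 2.26-fold lower, with Mllt3 the other lower gene. Kmt2d read from its brightest probe was 2.51-fold higher, while its other probes gave 0.75 and 0.22.

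Retinoic acid and Cdx factors switch Hox genes on in the embryo. This upstream list was the one below the others. Of 19 genes 13 had a value, 5 were lower (38.5%), 1 was higher (7.69%) and the median was -0.68. Aldh1a2, which makes retinoic acid, was 6.74-fold lower in SPAD (179 and 1313), Egr2 3.52-fold lower and the retinoic acid receptor gene Rara 2.88-fold lower. Cyp26b1, which breaks retinoic acid down, was lower as well, and Rxra, a partner receptor, was the higher gene. Cdx1, Cdx2 and Cdx4 were below background on both arrays.

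Genes that flank the clusters were set beside them, though a regional level was not tested. Of 14 such genes 12 had a value, with a median of 0.19, 1 higher and 1 lower (8.33% each, below the shares of all named genes). Lnpk, beyond Hoxd13, was 3.24-fold higher in SPAD (310 and 104), whereas Mtx2, beyond Hoxd1, was even (1620 and 1803). Skap2, beside HoxA, was even too (9336 and 10561). Other flanking genes were less even, with Snx11 at 0.55, Hibadh at 0.45, Smug1 at 0.43 and Hnrnpa3 at -0.23. Skap1, beside HoxB, had 15.3 and 30.7, Calcoco1, beside HoxC, had 140 and 87.7 (0.80 ± 0.12), and Cbx5, near HoxC, was 2.31-fold lower. The Evx genes next to Hoxa13 and Hoxd13 were below background on both arrays.

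**Figure D5:**
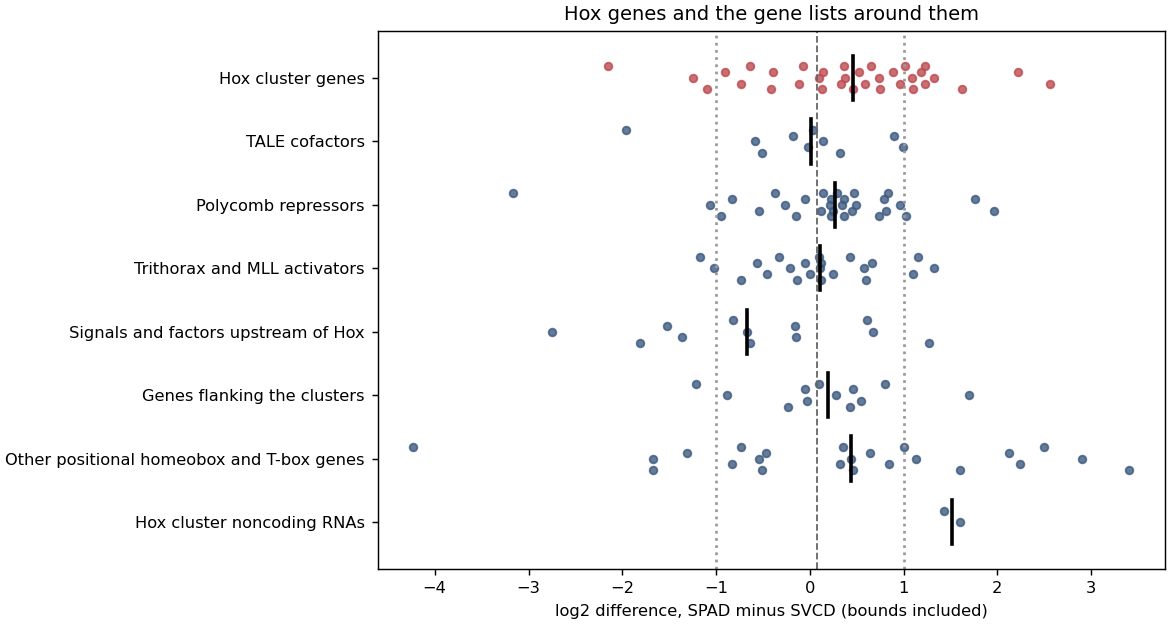
Log2 difference, SPAD minus SVCD (bounds included), of Hox genes and members of the surrounding gene lists with a value, less 1 Hox gene and 1 upstream gene; black bars are medians over all members with a value, dotted lines mark 2-fold and the dashed line the median of all named genes. The Hox median (0.46) lies above that of the TALE (0.01), Polycomb (0.27) and trithorax (0.10) lists, and the upstream list lies lowest (-0.68).

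The cell populations differed in their markers, and fewer cells of a type and less RNA per cell cannot be told apart in these samples. Of 8 markers each, 7 of mature adipocytes passed 2-fold higher in SPAD and 1, Lpl, passed 2-fold lower (summed signal 122753 in SPAD and 52769 in SVCD), led by Cfd (163-fold), Plin1, Adipoq and Cidec. The other probe of Cidec showed no such difference (21.5 and 23.5). Endothelial markers were higher too, 7 of 8 (15179 and 4826), with Sox17, Erg, Esam and Emcn between 9.30-fold and 13.3-fold. Lower in SPAD were 5 of 7 macrophage markers (22013 and 91455; Fcgr1, Aif1, Csf1r and Adgre1 led), 5 of 8 mesothelial (1570 and 17501; Krt8, Krt18, Msln and Clu) and 5 of 8 smooth muscle markers (15562 and 214531; Cnn1, Acta2, Tagln and Actg2), with 1 smooth muscle marker, Synpo2, higher. Fibroblast and progenitor markers had 3 of 8 higher and none lower (6924 and 12186; Pi16, Dpt, Ly6a and Col1a1 differed most). Fcgr1, Upk3b, Lrrn4 and Lmod1 were below background in SPAD and Dpt in SVCD; every other marker with a probe was well above it on both arrays. The part of these cell types in the Hox differences was not tested.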

How the data were processed

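RNA (30 ng per sample) was labelled with Cy3 and hybridised to 1 array per group, per the labels; both arrays lay on 1 slide. The deposited scanner files, come from Agilent Feature Extraction, in version 10.7.3.1 as the submitters' processing notes have it, and give background-subtracted intensity per spot on a linear scale. Detection and outlier marks in the deposited files are the scanner software's own. The authors' deposited value table is on a log2 scale and centred on each probe (column medians 0.16 and -0.16), and its differences equalled those of the intensities plus 0.12; how that shift was set was not found in the labels or headers.

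Of 44397 spots, 1377 controls and 73 (SPAD) or 85 (SVCD) outlier spots were left out, repeat spots were averaged in log2, and each array was divided by the 75th percentile of its probes. Of 39425 probes, 27506 (69.8%) were named through a RefSeq table (GRCm38.p6, names and promoter windows only). A gene was read from its probe with the highest mean signal; 5 Hox genes had 2 probes. Well above background were 64.5% (SPAD) and 65.6% (SVCD) of probes, and no spot was saturated; 1 array per group limits the precision. Spot error came from 277 probes printed repeatedly (at least 8 usable spots), in 6 levels of signal. Calls are by size (2-fold), with no test. Named are all Hox genes and, of each list, up to 4 genes with the largest difference. Members singled out after their values were seen are named too (Meis1, Pbx3, Ezh1, Ezh2, Mllt3, Cyp26b1, Rxra, Mtx2, Skap2, Snx11, Hibadh, Smug1, Hnrnpa3, Lpl, Synpo2 and those below background). Of the Hox genes 1, and of the upstream list 1, enter counts and medians but are not reported here singly. Members and lists were chosen with earlier results of these data known. The scripts were tested on simulated data. Python 3.11.15, R 4.3.3 and limma 3.58.1 (normexp and quantile normalization only) were used. The files hold no spot mean, so normexp used the median signal. The 9 alternatives are scaling (median, quantile, spike-in), background correction, 2 filters on dim probes, 2 choices of probe and the authors' table.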

Additional observations from a re-analysis of the deposited data

How the results depend on the processing

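With spike-in scaling the Hox median turned to -0.38, with 2 genes at least 2-fold higher and 9 lower. With normexp the median was 0.25, with 3 higher and 1 lower, and with only genes well above background on both arrays 1 was lower. The other 6 alternatives gave 9 to 11 higher and 3 or 4 lower. With the looser detection call (signal positive and significant), 1 Hox gene was detected on SPAD alone and 1 on SVCD alone. Over all named genes spike-in scaling gave 1006 higher and 5992 lower, and normexp 1383 and 1517, against 2547 and 2206. Of the genes past 2-fold that the text names, Cidec changed sign when read from its dimmest probe (-0.0040). The cause was not tested, except that normexp adds its offset to every signal and the filter removes the genes detected on 1 array. In the authors' table, genes detected on 1 array enter at their measured difference. Signal near background limits the 18 dimmest Hox genes. No paired analysis was possible because each group has 1 array.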

Other observations

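Other genes that mark body position or fat depots also differed. The list holds homeobox and T-box genes and members of other families, such as Hand2 and Nr2f1. Of its 32 genes 23 had a value, 8 passed 2-fold higher in SPAD (34.8%) and 4 passed 2-fold lower (17.4%). The shares over all named genes were 16.3% and 14.1%. The log2 differences of the list had a median of 0.44 (-0.40 with spike-in scaling and 0.16 with normexp). Hand2, a heart and limb regulator, was below background in SPAD (9.89) and had 221 in SVCD, at least 18.7-fold lower. Tbx18, known from epicardium and mural cells, was 10.6-fold higher in SPAD (438 and 45.3), Tbx2 7.50-fold higher (128 and 18.6) and the nuclear receptor gene Nr2f1 5.65-fold higher (1380 and 266), with its other probe at 2.42 on the log2 scale.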
